A study of Nothobranchius furzeri with 3 samples.

Results

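Long noncoding RNAs (lncRNAs) with enough counts to be followed across libraries were examined in the epidermal basal layer of the African turquoise killifish, *Nothobranchius furzeri*. Of 907 genes annotated as lncRNA in a table of 22954 genes, 142 were chosen by their raw UMI count, which summed to 50 or more over the 11 libraries. A UMI is a random tag that marks each captured RNA molecule, so that copies made by PCR are counted once. The same minimum was reached by 15.7% of lncRNAs and 26.4% of protein coding genes. RNA had been captured by photo-isolation chemistry (PIC), in which primers are released by light only in the irradiated region, here p63-positive cells of the basal layer (the labels name the fin as the tissue, and the protocol speaks of trunk and fin sections), and counted from the poly(A) end. The groups were aged fish given tunicamycin (aged (Tm), 3 libraries, 1 µg/mL, overnight according to the labels), aged fish given DMSO (4 libraries) and young fish given DMSO (4 libraries), all of the GRZ strain. Tunicamycin blocks N-linked glycosylation and so causes endoplasmic reticulum (ER) stress. The labels give no age for these libraries and do not state which libraries came from separate fish, so that p-values measure the spread between libraries, which may be in part technical. The replicates of each condition are listed under 1 name, and if that name stands for 1 preparation, condition and library preparation cannot be told apart.

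lncRNAs are transcripts without a long open reading frame. Many are spliced and polyadenylated like mRNAs, some remain in the nucleus and act at chromatin or in RNA-protein bodies, and others host small nucleolar RNAs or overlap a neighbouring coding gene. They are in general less abundant than mRNAs, more restricted to single tissues and poorly conserved in sequence, and few lncRNAs have an assigned role in fish. None of the 142 lncRNAs, and none of the 907, carried a gene symbol in the deposited table. A search for 29 symbols of well-known vertebrate lncRNAs, among them malat1, neat1, gas5 and norad, found 0 in the table. No role was therefore assigned to any of them, and they are given below by identifier and by the chromosome number in the table, where chromosomes are named sgr.

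The 142 lncRNAs lay on all 19 chromosomes (120 genes) and on 22 unplaced scaffolds (22 genes, 1 per scaffold). Chromosome 3 held 14 of them, among 55 lncRNAs and 1193 genes in all, and chromosome 15 held 1, among 18 lncRNAs and 1054 genes. Abundance was skewed, and 79 of the 142 had fewer than 100 counts in all, 28 had 100 to fewer than 200, 28 had 200 to fewer than 1000 and 7 had 1000 or more. Together they held 47601 of the 57563 lncRNA counts (82.7%). A single gene, ENSNFUG00015002266 on chromosome 1, held 34.4% of the counts of the 142, and the 12 with the highest mean CPM, groups weighted equally, held 64.6%. CPM is the count scaled to a library total of 1000000. In all 11 libraries, 75 of the 142 had at least 1 count. Close to the minimum, ENSNFUG00015019222 had 51 counts and ENSNFUG00015019840 and ENSNFUG00015024095 had 50 each, whereas ENSNFUG00015009012 with 49 and ENSNFUG00015012535 and ENSNFUG00015018295 with 48 each were left out. The sum weights deep libraries, and aged (Tm) libraries supplied 55.2% of all counts. When the same number of lncRNAs was taken by that mean CPM, 123 of the 142 were retained.

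Total counts ranged from 319223 to 705538 in aged (Tm) libraries, from 37655 to 265509 in aged libraries and from 35366 to 298033 in young libraries. Of the markers of basal keratinocytes, 5 of 11 symbols were found (tp63, krt5, krt15, itga6a and itgb4), and their summed level was 13017 to 14303 CPM in aged (Tm), 25344 to 32745 CPM in aged and 22417 to 59068 CPM in young libraries. Of the markers of suprabasal keratinocytes, 4 of 8 symbols were found. Their summed level was 5312 to 6173 CPM in aged (Tm), 6188 to 18223 CPM in aged and 14559 to 35846 CPM in young libraries. RNA of other tissues was also present. The sum over 10 skeletal muscle genes was 3675 to 5899 CPM in aged (Tm), 4173 to 19652 CPM in aged and 13321 to 69162 CPM in young libraries, and that over 6 fibroblast genes was 271 to 1356 CPM in aged (Tm), 546 to 2712 CPM in aged and 7069 to 13586 CPM in young libraries. The part of these tissues in the differences below was not tested. As these are bulk libraries, fewer cells of a type and less RNA per cell cannot be told apart. The strand used for counting was not given in the sources used here, and reads of a lncRNA and of a coding gene that overlaps it cannot be told apart.

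The first question was what part of the captured RNA came from lncRNAs, and whether that part followed the condition or the depth. All 907 lncRNAs together took 1.24%, 1.25% and 2.13% of the counts in aged (Tm) replicates 1, 2 and 3, against 5.42%, 2.64%, 4.58% and 3.79% in aged replicates 1 to 4 and 2.62%, 2.88%, 2.76% and 2.76% in young replicates 1 to 4. The 142 lncRNAs alone took 1.09%, 1.13% and 1.80% in aged (Tm) libraries, against 3.75%, 2.24%, 3.38% and 3.12% in aged and 2.37%, 2.23%, 1.88% and 2.19% in young libraries. The 3 aged (Tm) libraries lay below all aged and all young libraries on both measures, and the aged and young libraries overlapped. The 95% Wilson intervals, which cover counting error only, were narrow beside the spread between libraries. For the 142 they ran from 1.05% to 1.12% in aged (Tm) replicate 1, the lowest library, and from 3.56% to 3.94% in aged replicate 1, the highest.

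The mean share of the 142 was 1.34% ± 0.404 in aged (Tm) libraries (SD, n = 3), 3.12% ± 0.643 in aged (n = 4) and 2.17% ± 0.205 in young libraries (n = 4). In exact two-sided permutation tests the difference was −1.78 percentage points between aged (Tm) and aged libraries (p = 0.0571, adjusted over the 3 pairs 0.0571). It was −0.831 between aged (Tm) and young libraries (exact p = 0.029, the smallest this design allows, adjusted 0.0571) and 0.951 between aged and young libraries (exact p = 0.0571, adjusted 0.0571). For all 907 lncRNAs the differences were −2.57 (exact p = 0.0571, adjusted 0.0857), −1.21 (exact p = 0.029, adjusted 0.0857) and 1.35 percentage points (exact p = 0.114, adjusted 0.114) for the same 3 pairs. No pair passed an adjusted p of 0.05. Without the 3 libraries under 60000 counts (aged replicates 1 and 3 and young replicate 3), a setting chosen after seeing the data, the difference of the 142 was −1.34 between aged (Tm) and aged and 0.414 between aged and young libraries. Pseudogenes, the other large class without coding function, took 0.909% to 1.30% of the counts in aged (Tm), 1.08% to 2.23% in aged and 1.42% to 1.93% in young libraries. Their difference was −0.65 percentage points between aged (Tm) and young libraries, which did not overlap (exact p = 0.029, adjusted 0.0857), and −0.576 between aged (Tm) and aged libraries, which did (exact p = 0.171, adjusted 0.257). For the pair of aged (Tm) and young libraries, pseudogenes thus had the same exact and adjusted p as all lncRNAs. Without ENSNFUG00015002266 the aged (Tm) libraries no longer lay below all others for the 142, as replicate 3 had 1.35%, against 1.13% in aged replicate 2 and 0.823% in young replicate 1. The difference was then −1.39 between aged (Tm) and aged (exact p = 0.0857, adjusted 0.171) and −0.37 between aged (Tm) and young libraries (exact p = 0.171, adjusted 0.171), with means of 0.931% in aged (Tm), 2.32% in aged and 1.30% in young libraries.

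Among the aged libraries the share was lower in the deeper ones, and the young libraries showed no such order. The 2 shallow aged libraries, replicates 1 and 3 with 37655 and 51321 counts, had shares of all lncRNAs of 5.42% and 4.58%, and replicates 4 and 2, with 180319 and 265509 counts, had 3.79% and 2.64%. The shallowest library of all, young replicate 3 with 35366 counts, had 2.76%, and the deepest young library, replicate 4 with 298033 counts, also had 2.76%. Over the 8 aged and young libraries, the share of all lncRNAs and log10 of the total count had a Pearson r of −0.558 (exact permutation p = 0.156, adjusted over 4 relations 0.208) and a Spearman rho of −0.262 (exact permutation p = 0.536, adjusted 0.619). For the share of the 142, r was −0.383 (exact permutation p = 0.347, adjusted 0.347) and rho −0.214 (exact permutation p = 0.619, adjusted 0.619). Without the 2 libraries farthest from the median depth (young replicate 3 and aged replicate 1), r was −0.681 for all lncRNAs and −0.659 for the 142. Within the groups, r for all lncRNAs was −0.955 over the 4 aged libraries and 0.136 over the 4 young libraries, given as values only. For the 142 it was −0.9 over the aged and 0.66 over the young libraries, with opposite signs. All 3 aged (Tm) libraries were deeper than every aged and young library, and depth and condition cannot be told apart for them. Among them the share was highest in the deepest library, replicate 3.

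**Figure D1:**
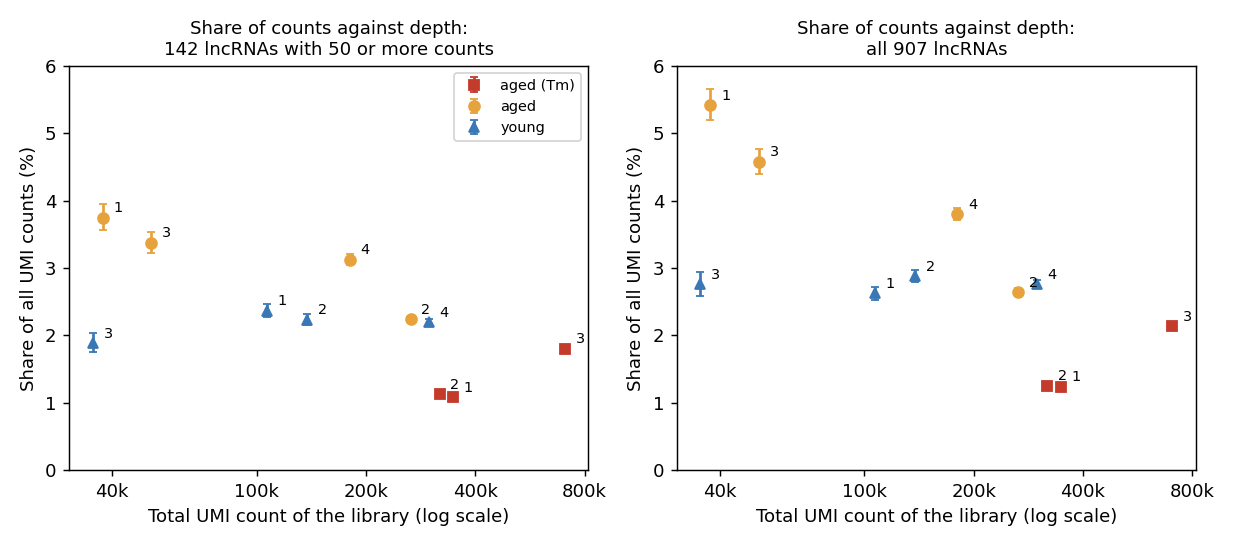
Share of all UMI counts (percent, vertical axis) taken by the 142 lncRNAs (left) and by all 907 lncRNAs (right) against the total UMI count of each library (horizontal axis, log scale). Points are libraries, numbered by replicate, with 95% Wilson intervals. The aged libraries run from 5.42% at 37655 counts to 2.64% at 265509 counts on the right, while the young libraries stay between 2.62% and 2.88%, and the 3 aged (Tm) libraries lie below both groups.

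The share of lncRNA counts also went with the number of genes detected. This relation was chosen after seeing the data, and its 2 measures are not independent, as lncRNAs detected are counted among the genes detected. After random thinning of every library to a total of 35366, 5148, 5095 and 7444 genes had at least 1 count in aged (Tm) replicates 1 to 3, against 11547, 7257, 10879 and 8769 in aged and 5700, 8819, 9205 and 8533 in young libraries. Over the 8 aged and young libraries, the share of all lncRNAs and this number had an r of 0.831 (exact permutation p = 0.00756, adjusted over 4 relations 0.0302) and a rho of 0.833 (exact permutation p = 0.0154, adjusted 0.0616). Without the 2 libraries farthest from the median number of genes (young replicate 1 and aged replicate 1) r was 0.79, and within the groups it was 0.983 over the 4 aged and 0.823 over the 4 young libraries. For the 142, r was 0.667 (exact permutation p = 0.0792, adjusted 0.158), with 0.954 over the aged and −0.75 over the young libraries. The relation of the 142 thus had opposite signs in the aged and young groups. The summed level of skeletal muscle genes was 19652 and 18706 CPM in aged replicates 1 and 3, which had the higher lncRNA shares, against 4173 and 5185 CPM in aged replicates 2 and 4. It was highest, at 69162 CPM, in young replicate 3, whose lncRNA share was like that of the other young libraries. Other marker sums went either way. For basal keratinocytes the sum was 32745 and 30845 CPM in aged replicates 1 and 3, against 25344 and 30662 CPM in aged replicates 2 and 4. For suprabasal keratinocytes it was 6188 and 7015 CPM, against 15676 and 18223 CPM. For immune cells it was 319 and 487 CPM, against 1119 and 1109 CPM. The part of such RNA in the lncRNA shares was not tested.

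At equal depth fewer of the 142 lncRNAs were seen in every aged (Tm) library than in any aged library. At 35366 counts, 70, 67 and 97 of them had at least 1 count in aged (Tm) replicates 1 to 3, against 121, 108, 127 and 118 in aged and 90, 108, 112 and 108 in young libraries. The aged (Tm) libraries lay below all aged libraries and overlapped the young. The means were 78 ± 16.5 (SD, n = 3) in aged (Tm), 118.5 ± 7.94 (n = 4) in aged and 104.5 ± 9.85 (n = 4) in young libraries. The difference was −40.5 between aged (Tm) and aged libraries (exact p = 0.029, the smallest possible, adjusted 0.0857), −26.5 between aged (Tm) and young (exact p = 0.0857, adjusted 0.114) and 14 between aged and young libraries (exact p = 0.114, adjusted 0.114). In the libraries as deposited, the means were 137 in aged (Tm), 134.5 in aged and 128 in young libraries, and the direction of both aged (Tm) differences was the opposite. Genes of any kind were also fewer at equal depth, with means of 5896 in aged (Tm), 9613 in aged and 8064 in young libraries. Their difference was −3717 between aged (Tm) and aged libraries (exact p = 0.0857, adjusted 0.214). Between aged (Tm) and young libraries it was −2169 (exact p = 0.143, adjusted 0.214). The lower number is thus not particular to lncRNAs.

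**Figure D2:**
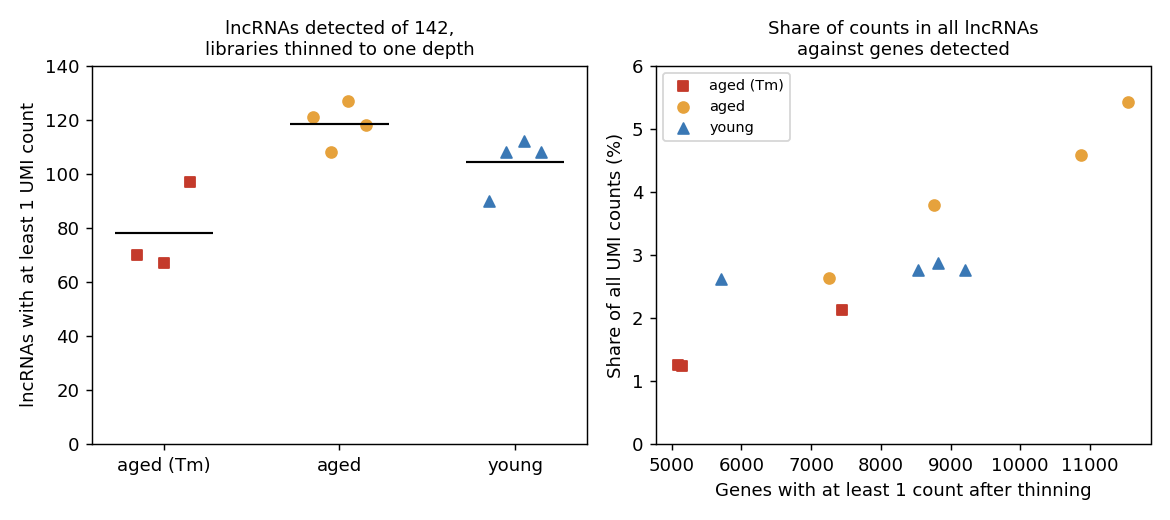
Left, number of the 142 lncRNAs with at least 1 count in each library after thinning to 35366 counts (vertical axis), with a line at the group mean. Right, share of all UMI counts in all 907 lncRNAs (percent, vertical axis) against the number of genes with at least 1 count after thinning (horizontal axis). Aged (Tm) libraries have 67 to 97 of the lncRNAs and aged libraries 108 to 127. Among aged libraries the share is larger where more genes were detected, while young libraries stay between 2.62% and 2.88%.

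Next, the levels of the abundant lncRNAs were compared. ENSNFUG00015002266, the most abundant, had 3476, 4210 and 4528 CPM in aged (Tm) libraries, against 2310, 11118, 6898 and 11579 CPM in aged and 15439, 8437, 3337 and 7486 CPM in young libraries. Its levels overlapped between all groups, with a log2 fold change of −0.67 ± 0.83 (SE) for aged (Tm) over aged (edgeR adjusted p = 0.543), −0.86 ± 0.84 for aged (Tm) over young (edgeR adjusted p = 0.449) and −0.19 ± 0.76 for aged over young (edgeR adjusted p = 0.996). It was low in the 2 shallowest libraries, young replicate 3 and aged replicate 1, and took between 6.17% and 65.2% of the counts of the 142 from library to library. Its raw count was 3195 in aged (Tm) replicate 3 and 2952 in aged replicate 2. In the 8 libraries over 100000 counts the most abundant gene of any kind had between 3527 and 4337 counts, although the totals differed by 6.6 times. The part of such a ceiling in the levels of this lncRNA was not tested, nor its part in the shares, numbers detected and other CPM values. ENSNFUG00015020075 on chromosome 19 had a narrow range, with 496, 435 and 519 CPM in aged (Tm), 797, 399, 526 and 677 CPM in aged and 552, 814, 735 and 624 CPM in young libraries. ENSNFUG00015018279, ENSNFUG00015017122, ENSNFUG00015006297 and ENSNFUG00015003424 also passed the test in no pair of groups. ENSNFUG00015009624 on an unplaced scaffold was lower in aged (Tm) libraries. Its log2 fold change was −2.24 ± 0.65 over aged (edgeR adjusted p = 0.0189) and −1.70 ± 0.64 over young (edgeR adjusted p = 0.062). Without a filter on low counts it passed in neither pair (edgeR adjusted p = 0.427 and 0.572).

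**Figure D3:**
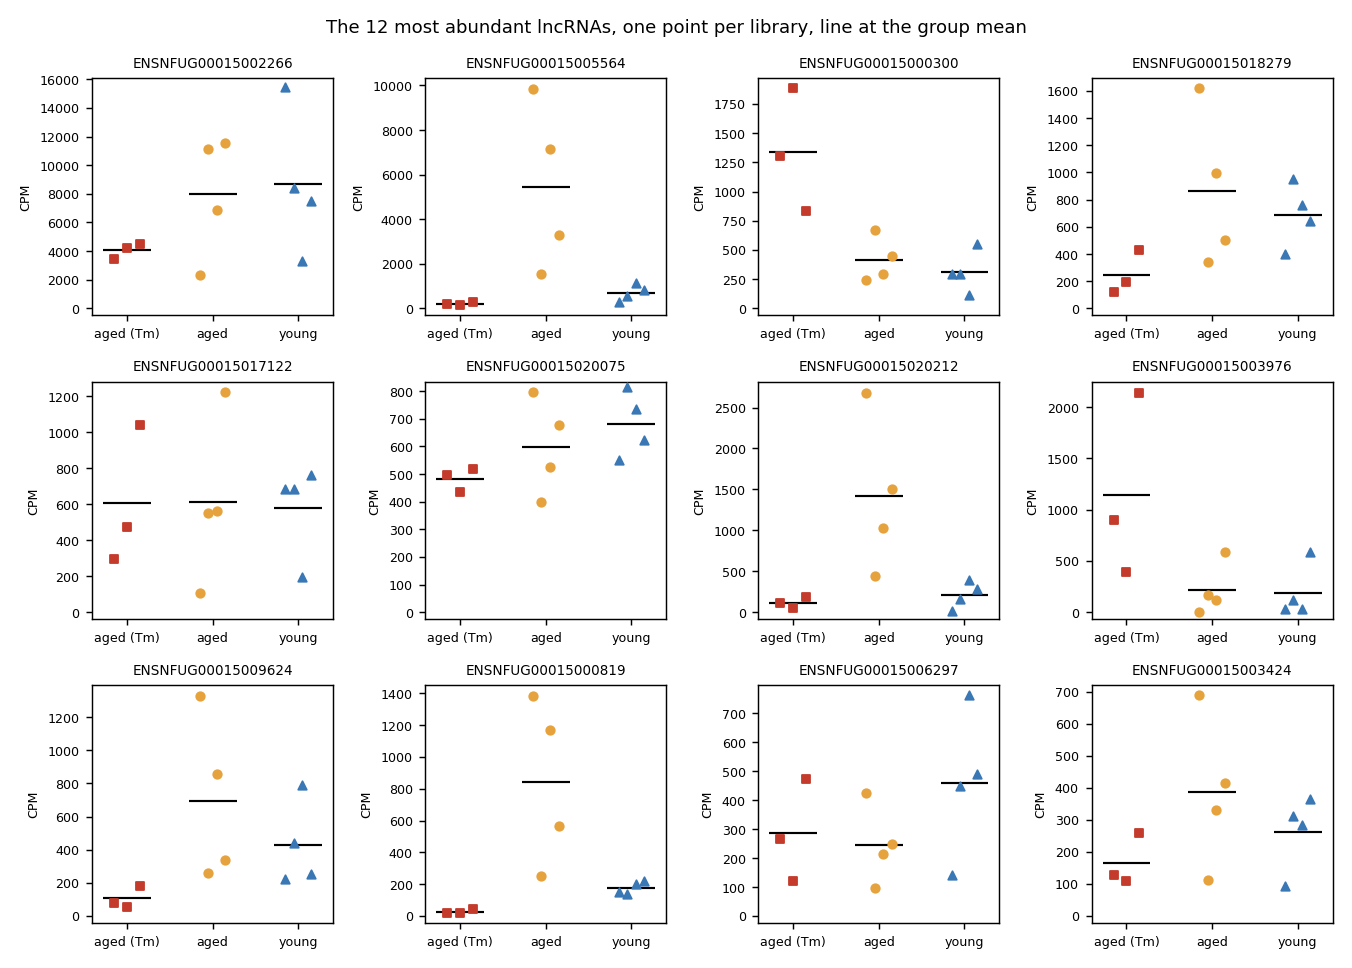
CPM (vertical axis, linear, one scale per panel) of the 12 lncRNAs with the highest mean CPM, groups weighted equally, in aged (Tm), aged and young libraries. Points are libraries and lines are group means. ENSNFUG00015000300 is higher in all aged (Tm) libraries than in any other, and ENSNFUG00015005564 and ENSNFUG00015000819 are higher in all aged libraries than in any other.

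Differences between groups were tested over 3963 genes, 99 of the 142 lncRNAs among them, at a Benjamini-Hochberg adjusted p of 0.1. The other 43 had too few counts, with sums of 50 to 207 and a median of 57. A gene was tested when it had at least about 55.5 CPM in 3 libraries, and 58 of the 99 lncRNAs reached this in 3 or more aged libraries but only 16 in the 3 aged (Tm) libraries. When aged libraries were set aside, 51 of the 99 still reached it in 3 libraries, so that the 99 lean toward lncRNAs that were high in aged libraries and their counts below are a description. CPM values are not scaled by the TMM factors that the fold changes use.

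Between aged (Tm) and aged libraries, 55 of the 99 tested lncRNAs fell, against 20.2% of all tested genes, and 3 rose, against 18.5% of all tested genes. The median log2 fold change was −1.55 over the 99 and −0.03 over all tested genes. Over all 142, without a test, libraries did not overlap in CPM with aged (Tm) lower for 62 lncRNAs (43.7%), against 16.3% of the 5938 genes of any kind with 50 or more counts, and with aged (Tm) higher for 4, against 15.1%. Among protein coding genes with 50 or more counts, 15.2% were lower and 15.4% higher without overlap. The number of calls depended on the libraries included. It was 23 (22 of them lower) without aged (Tm) replicate 1, 25 (22 lower) without aged (Tm) replicate 2, and 28 (27 lower) without the 3 libraries under 60000 counts. In the 1-library-out settings the median over the lncRNAs stayed between −2.11 and −1.27. Without a filter on low counts 18 of the 142 passed, 11 of them higher and 7 lower. That fit centres the values differently, with a median of 0.76 over the genes with 50 or more counts and −0.60 over the 142. The share of all genes that passed in that fit was not counted, so the 11 and 7 are given without a background.

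The most pronounced was ENSNFUG00015023845 on chromosome 13, which had 0 counts in all 3 aged (Tm) libraries, of 346945, 319223 and 705538 counts in all. It had 452, 86.6, 156 and 128 CPM in aged libraries (17, 23, 8 and 23 counts) and 74.9, 414, 226 and 198 CPM in young libraries (8, 57, 8 and 59 counts). Against a floor of 3 counts over the 3 aged (Tm) libraries together, its pooled level was at least 60.7-fold lower in aged (Tm) than in aged libraries and at least 104-fold lower than in young libraries. It passed the test in both pairs under each of the 21 alternatives in which it was tested, with edgeR adjusted p of 0.000183 for aged (Tm) over aged and 5.55e-05 for aged (Tm) over young. Aged and young libraries overlapped (log2 fold change −0.45 ± 0.53, edgeR adjusted p = 0.996).

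ENSNFUG00015000819 on chromosome 2 had 17.3, 18.8 and 41.1 CPM in aged (Tm) libraries, against 1381, 249, 1169 and 566 CPM in aged and 150, 138, 198 and 222 CPM in young libraries. The 3 groups did not overlap, and it was highest in aged and lowest in aged (Tm) libraries. Its log2 fold change was −4.50 ± 0.67 for aged (Tm) over aged (edgeR adjusted p = 0.000408), −2.48 ± 0.62 for aged (Tm) over young (edgeR adjusted p = 0.00916) and 2.03 ± 0.54 for aged over young (edgeR adjusted p = 0.108, not past the threshold). ENSNFUG00015020212 on chromosome 6 had 107, 56.4 and 180 CPM in aged (Tm) libraries, against 2682, 444, 1033 and 1508 CPM in aged and 9.36, 167, 396 and 278 CPM in young libraries. All its aged libraries were above all others, while aged (Tm) and young libraries overlapped. The log2 fold change was −3.17 ± 0.81 for aged (Tm) over aged (edgeR adjusted p = 0.0107), −0.49 ± 0.75 for aged (Tm) over young (edgeR adjusted p = 0.638) and 2.68 ± 0.72 for aged over young (edgeR adjusted p = 0.122). Without a filter on low counts, aged (Tm) over aged did not pass for ENSNFUG00015020212 (edgeR adjusted p = 0.102). ENSNFUG00015000819 then passed for aged (Tm) over aged (edgeR adjusted p = 0.00146) but not over young (edgeR adjusted p = 0.193).

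Lower-count lncRNAs also fell. ENSNFUG00015022794 on chromosome 16 had 37.5, 34.5 and 79.4 CPM in aged (Tm) libraries, against 903, 147, 565 and 344 CPM in aged and 84.2, 189, 509 and 278 CPM in young libraries, with log2 fold changes of −2.75 ± 0.62 over aged (edgeR adjusted p = 0.00572) and −1.98 ± 0.61 over young (edgeR adjusted p = 0.0274). ENSNFUG00015021450 on chromosome 10 had 17.3, 9.40 and 18.4 CPM in aged (Tm), against 133, 49, 195 and 105 CPM in aged and 37.4, 145, 170 and 104 CPM in young libraries (−2.42 ± 0.56, edgeR adjusted p = 0.00633, and −2.49 ± 0.55, edgeR adjusted p = 0.00403). For both, the aged (Tm) libraries lay below all aged and all young libraries. Without a filter on low counts, ENSNFUG00015022794 did not pass over aged or young libraries (edgeR adjusted p = 0.155 and 0.416). ENSNFUG00015021450 then passed over young libraries (edgeR adjusted p = 0.0899) but not over aged libraries (edgeR adjusted p = 0.171). ENSNFUG00015004306 on chromosome 7, ENSNFUG00015022389 on chromosome 11 and ENSNFUG00015025108 on chromosome 17 fell by 2.74, 2.73 and 2.50 on the log2 scale in aged (Tm) over aged libraries, with edgeR adjusted p of 0.0108, 0.00477 and 0.00918. The first of them rests on 73 counts in all, and the last did not pass without a filter on low counts (edgeR adjusted p = 0.211). ENSNFUG00015004306 and ENSNFUG00015022389 reached the 55.5 CPM needed for testing in 3 aged libraries, the group where they were high. Outside that group fewer than 3 libraries reached it. Without a filter on low counts both passed over aged libraries (edgeR adjusted p = 0.082 and 0.058). The other 45 lncRNAs that fell, ENSNFUG00015009624 among them, had log2 fold changes between −2.41 and −1.17. Of all 55, 49 did not overlap between aged (Tm) and aged libraries in CPM. This adds no separate evidence, as the 55 were chosen by the test on the same libraries.

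By the test 3 lncRNAs rose in aged (Tm) over aged libraries. ENSNFUG00015000300 on chromosome 2 had 1303, 1883 and 831 CPM in aged (Tm) libraries, against 239, 667, 292 and 449 CPM in aged and 290, 291, 113 and 547 CPM in young libraries. All 3 aged (Tm) libraries were above all others, with log2 fold changes of 2.07 ± 0.70 over aged (edgeR adjusted p = 0.0354) and 2.47 ± 0.71 over young (edgeR adjusted p = 0.0186). ENSNFUG00015003976 on chromosome 1 had 896, 392 and 2142 CPM in aged (Tm) libraries, against 0, 166, 117 and 588 CPM in aged and 28.1, 116, 28.3 and 584 CPM in young libraries. Here aged (Tm) replicate 2 was below aged replicate 4 and young replicate 4, and the log2 fold changes were 2.46 ± 0.92 (edgeR adjusted p = 0.0509) and 2.73 ± 0.93 (edgeR adjusted p = 0.0421). ENSNFUG00015022805 on chromosome 3 had 424, 335 and 220 CPM in aged (Tm) libraries, against 79.7, 154, 156 and 139 CPM in aged libraries, which did not overlap (1.68 ± 0.56, edgeR adjusted p = 0.032), and 262, 204, 113 and 161 CPM in young libraries, which did (1.14 ± 0.55, edgeR adjusted p = 0.133). Without the 3 libraries under 60000 counts these 3 calls over aged libraries were all lost. Leaving out 1 library also lost them: aged (Tm) replicate 2 for ENSNFUG00015000300, aged (Tm) replicate 1 or aged replicate 3 for ENSNFUG00015003976, and aged (Tm) replicate 1 for ENSNFUG00015022805. ENSNFUG00015003976 also did not pass with limma voom, nor ENSNFUG00015022805 with scaling by total count. Without a filter on low counts, in the fit centred differently, all 3 passed over aged libraries (edgeR adjusted p = 0.0499, 0.0108 and 0.0302 in the same order). The other lncRNAs of the 142 that were higher without overlap were ENSNFUG00015018221 (74.9, 94 and 80.8 CPM in aged (Tm), against 26.6 to 67.8 CPM in aged libraries, 1.02 ± 0.60, edgeR adjusted p = 0.188) and ENSNFUG00015006401 (22.7 to 34.5 CPM against 0 to 16.6 CPM, removed by the filter). Without that filter both passed over aged libraries (edgeR adjusted p = 0.094 and 0.0229). These 2 were named after their values were seen.

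**Figure D4:**
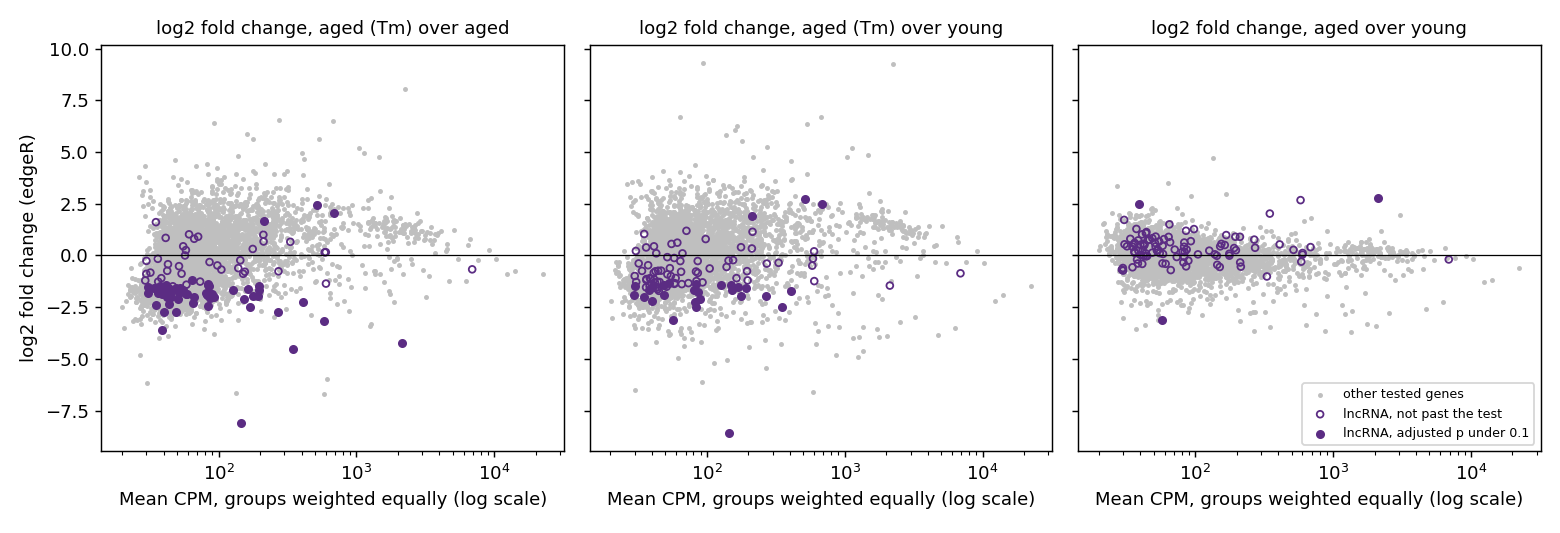
log2 fold change (edgeR, vertical axis) against mean CPM with the groups weighted equally (horizontal axis, log scale) for the 3963 tested genes in aged (Tm) over aged, aged (Tm) over young and aged over young libraries. Grey points are other genes, open and filled purple points are the 99 tested lncRNAs, filled where the adjusted p was under 0.1. In the left panel 55 lncRNAs are filled below 0 and 3 above, and in the right panel 1 below and 2 above.

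Between aged (Tm) and young libraries, 26 of the 99 tested lncRNAs fell, against 13.2% of all tested genes, and 3 rose, against 15.9%. The median log2 fold change was −1.14 over the 99 and −0.10 over all tested genes. Over all 142, 31 were lower without overlap in CPM, against 10.7% of genes with 50 or more counts, and 2 were higher, ENSNFUG00015000300 and ENSNFUG00015007929, against 15.4%. This comparison shares its aged (Tm) libraries with the one above. The count was 10 without aged (Tm) replicate 1, 10 without aged (Tm) replicate 2, 12 without young replicate 2 and 18 without aged replicate 4. Without a filter on low counts 14 passed, 10 of them higher, in a fit whose median was 0.60 over the genes with 50 or more counts and −0.39 over the 142. Here too the share of all genes that passed was not counted.

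In addition to those above and to ENSNFUG00015015138, given below, the named lncRNAs that fell were ENSNFUG00015019040 and ENSNFUG00015001101 on chromosome 3 (−2.23 ± 0.61 and −2.09 ± 0.58), ENSNFUG00015014590 on chromosome 19 (−1.99 ± 0.77) and ENSNFUG00015008406 on chromosome 2 (−1.96 ± 0.55), with edgeR adjusted p of 0.0147, 0.0157, 0.0685 and 0.0163. ENSNFUG00015014590 rests on 53 counts in all, and its call over young was lost in 7 of 13 alternatives. It reached the 55.5 CPM needed for testing only in aged replicates 1 and 3 and young replicate 3, the shallow libraries, from 4, 3 and 3 counts. Without a filter on low counts, none of these named lncRNAs passed over young libraries (edgeR adjusted p of 0.153, 0.225, 0.377 and 0.377 in the same order). ENSNFUG00015008406 had 25.9, 31.3 and 82.2 CPM in aged (Tm) libraries, against 93.6, 225, 424 and 201 CPM in young libraries. The 16 others, ENSNFUG00015009624 among them, had log2 fold changes between −1.89 and −1.31. ENSNFUG00015001796 on chromosome 5 was the lncRNA that rose in aged (Tm) over young libraries and not over aged libraries by the test, with 219, 78.3 and 765 CPM in aged (Tm), against 26.6, 260, 195 and 233 CPM in aged and 46.8, 138, 84.8 and 134 CPM in young libraries (1.91 ± 0.65 over young, edgeR adjusted p = 0.0441, and 1.00 ± 0.63 over aged, edgeR adjusted p = 0.219). It rests on aged (Tm) replicate 3, without which the call over young was lost. The same library held most of the level of ENSNFUG00015009027, which lies on an unplaced scaffold. It had 17.3, 28.2 and 242 CPM in aged (Tm) libraries and 0 to 50.3 CPM in the others, and did not pass the filter for testing. Without a filter on low counts, in the fit centred differently, its log2 fold change was 4 ± 0.73 over aged libraries (edgeR adjusted p = 1.55e-05). Over young libraries it was then 2.72 ± 0.63 (edgeR adjusted p = 0.00168). Aged (Tm) replicate 3 had the highest CPM of its group for 123 of the 142 lncRNAs (86.6%), against 65.3% of genes with 50 or more counts.

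Few lncRNAs differed with age. Of the 99, 2 rose in aged over young libraries, against 0.0757% of all tested genes, and 1 fell, against 0.631%. The 2 were among only 3 genes of any kind that rose. Of the 99, 9 had an unadjusted edgeR p under 0.05, against 242 of the 3963 tested genes. The median log2 fold change was 0.28 over the 99 and 0.05 over all tested genes. Over all 142, 5 were higher in aged libraries without overlap in CPM, against 1.52% of genes with 50 or more counts, and 0 were lower, against 1.85%. The 5 were ENSNFUG00015005564, ENSNFUG00015020212, ENSNFUG00015000819, ENSNFUG00015000206 and ENSNFUG00015003911 on chromosome 3. The last was named after its values were seen, with 186, 106, 117 and 200 CPM in aged and 28.1, 72.7, 56.6 and 73.8 CPM in young libraries (1.28 ± 0.47, edgeR adjusted p = 0.442).

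ENSNFUG00015005564 on chromosome 10, the second most abundant lncRNA, had 184, 132 and 291 CPM in aged (Tm) libraries, against 9853, 1537, 7171 and 3289 CPM in aged and 290, 560, 1159 and 825 CPM in young libraries. All aged libraries were above all others, and the 2 shallow ones were highest. The log2 fold change was 2.79 ± 0.71 for aged over young (edgeR adjusted p = 0.0916) and −4.25 ± 0.85 for aged (Tm) over aged (edgeR adjusted p = 0.00268), and −1.45 ± 0.75 for aged (Tm) over young, which did not pass (edgeR adjusted p = 0.16). ENSNFUG00015000206 on chromosome 2 followed the same order at far lower levels, with 2.88, 6.27 and 7.09 CPM in aged (Tm) libraries (1, 2 and 5 counts), against 133, 60.3, 77.9 and 111 CPM in aged (5, 16, 4 and 20 counts) and 0, 21.8, 28.3 and 16.8 CPM in young libraries (0, 3, 1 and 5 counts). Its log2 fold change was 2.48 ± 0.64 for aged over young (edgeR adjusted p = 0.0999, on the threshold) and −3.62 ± 0.67 for aged (Tm) over aged (edgeR adjusted p = 0.00159). It reached the 55.5 CPM needed for testing only in aged libraries, the group where it was high. Without a filter on low counts, edgeR adjusted p was 0.431 for aged over young and 0.00359 for aged (Tm) over aged. ENSNFUG00015005564 and ENSNFUG00015000206 were the 2 lncRNAs past the test in both comparisons, which share the aged libraries.

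ENSNFUG00015015138 on chromosome 19 was the lncRNA that fell with age, with 8.65, 25.1 and 12.8 CPM in aged (Tm), 0, 15.1, 0 and 33.3 CPM in aged (0, 4, 0 and 6 counts) and 318, 153, 0 and 104 CPM in young libraries (34, 21, 0 and 31 counts). Young replicate 3 had 0 counts, where 3 counts would be 84.8 CPM, and the groups overlapped. The log2 fold change was −3.13 ± 0.76 for aged over young (edgeR adjusted p = 0.0668), and −3.13 ± 0.73 for aged (Tm) over young (edgeR adjusted p = 0.00551). It reached the 55.5 CPM needed for testing only in young replicates 1, 2 and 4, in the group where it was high. Without a filter on low counts, edgeR adjusted p was 0.00646 for aged over young and 0.00664 for aged (Tm) over young. The 3 calls with age were fragile. The count was 0 without any 1 of aged replicates 1, 3 and 4 and young replicates 1, 2 and 4, and 1 without any 1 of the aged (Tm) libraries, which enter through the shared spread. Without young replicate 1, 2 or 4 only 2 of the 3 were tested. ENSNFUG00015015138 was then removed by the filter, so its loss there does not measure how stable its call was. Without the 3 libraries under 60000 counts 3 also passed, but 2 of them were the same, and ENSNFUG00015000206 was not among them.

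**Figure D5:**
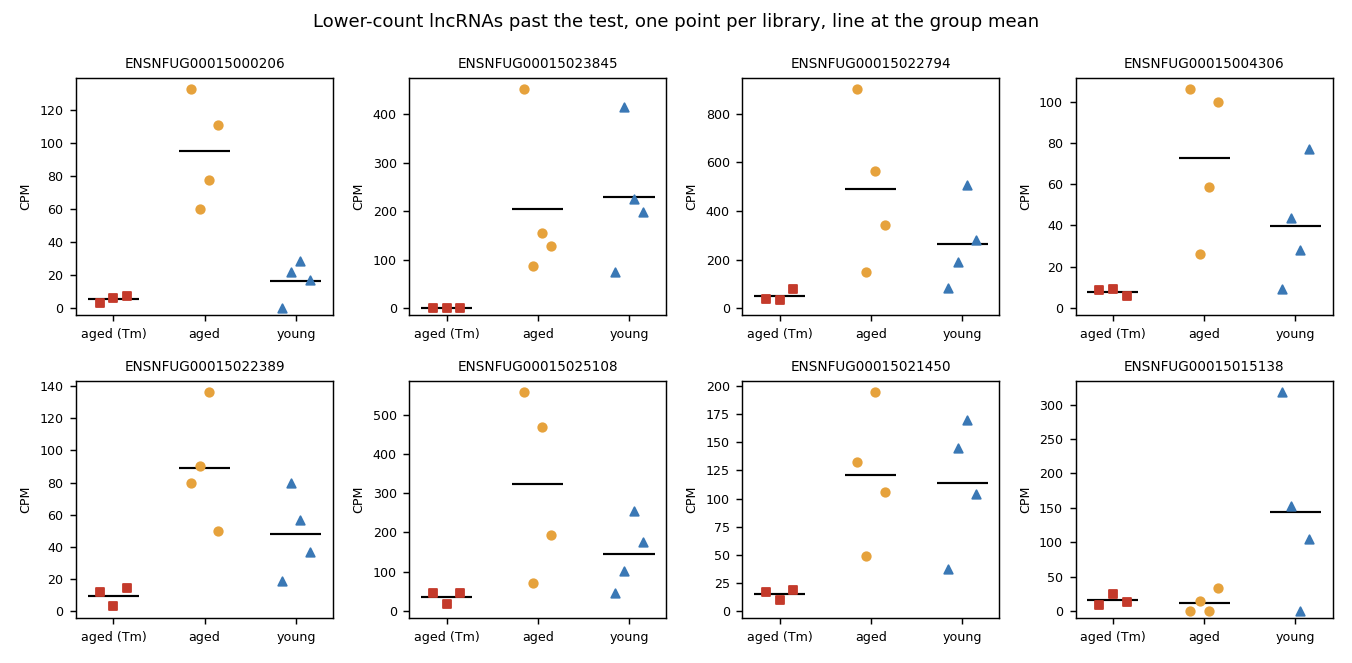
CPM (vertical axis, linear, one scale per panel) of 8 lower-count lncRNAs past the test in aged (Tm), aged and young libraries. Points are libraries and lines are group means. ENSNFUG00015023845 is at 0 in the 3 aged (Tm) libraries, and ENSNFUG00015015138 is above 100 CPM in 3 of the 4 young libraries only.

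Aged replicate 1 had the highest CPM of its group for 72 of the 142 (50.7%), against 35.3% of genes with 50 or more counts, and aged replicate 2 for 10 (7.04%), against 20.1%. In the young group, replicate 3 was highest for 54 (38%), against 30.3%, and replicate 1 for 20 (14.1%), against 18.6%. For 3 lncRNAs a single library held more than 50% of the CPM summed over the 11 libraries. They were ENSNFUG00015009027 (59.6% in aged (Tm) replicate 3), ENSNFUG00015004844 on chromosome 15 (53.8% in aged replicate 1) and ENSNFUG00015011029 on chromosome 4 (53.2% in aged replicate 3).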

How the data were processed

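UMI counts per gene were deposited by the authors as whole numbers without normalization for 11 libraries. Per the labels and the submitters' processing notes, reads were handled with UMI-tools 1.0.0, HISAT2 2.1.0, featureCounts 1.6.4 and DESeq2 1.20.0. The genome build, annotation and counting strand were not given in the sources used here, and no coordinates or sequences were used. Here, lncRNAs with a summed count of 50 or more were retained. Columns were assigned to groups by name, and 0 columns of values were left unused. Members, lists and tests were chosen with earlier results of these data known. CPM is the count divided by the library total times 1000000. Groups were compared with edgeR 4.0.16 under R 4.3.3 (two-sided quasi-likelihood F test, 1 fit of all 11 libraries, TMM, filterByExpr by group, Benjamini-Hochberg over 3963 genes, threshold 0.1). SE is the log2 fold change divided by the square root of F. Shares and numbers of lncRNAs detected were compared by exact permutation over libraries (numpy 2.4.6, 70 splits for 4 against 4, 35 for 3 against 4). Wilson intervals and ranks were computed with scipy 1.17.1. Thinning to 35366 counts, the smallest total, was done once. Named lncRNAs were the 12 with the highest mean CPM, up to 10 past the test in each direction and comparison with the largest change, those past it in both comparisons of aged libraries, and 3 on each side of the minimum. DESeq2 1.42.0, limma 3.58.1, other scalings, filters and subsets were alternatives. The fit was tested on simulated data.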

Additional observations from a re-analysis of the deposited data

Results flagged for a closer look

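Among 64 groups of 4 libraries, for the shares, the number detected and each named lncRNA, 2 were flagged for a library far from the others. As chance gives about 1 in 20, these are no more than chance would give. ENSNFUG00015017122 had 198 CPM in young replicate 3, from 7 counts, against 683, 683 and 765 CPM in the other young libraries. ENSNFUG00015003976 had 584 CPM in young replicate 4, against 28.1, 116 and 28.3 CPM in the others.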

How the results depend on the processing

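Few counts per lncRNA limit precision, and 79 of the 142 had under 100 in all libraries. For aged (Tm) over aged, 58 of 99 tested lncRNAs passed. The count was 18 without a filter on low counts, 14 of 21 tested after thinning, and 28 without the 3 libraries under 60000 counts (chosen after seeing the data). It was 23 to 64 without 1 library, and 52 of the 58 passed in DESeq2. For aged (Tm) over young, 29 passed, against 14 without a filter, 11 after thinning, 18 at an adjusted p of 0.05, and 10 to 37 without 1 library. For aged over young, 3 passed, against 1 without a filter, 0 after thinning, with the replicate block, with the aged and young libraries alone or at an adjusted p of 0.05, and 0 to 3 without 1 library. After thinning, and with the aged and young libraries alone, only 1 of the 3 passed the filter and was tested. In aged over young, 9 of the 99 had an unadjusted edgeR p under 0.05, against 242 of the 3963 tested genes, and DESeq2 and limma voom called 4 each. The lower number of lncRNAs detected at equal depth in aged (Tm) libraries was reversed without thinning, by 2.5 against aged and 9.25 against young libraries. Scaling by total count alone moved the median of all tested genes in aged (Tm) over aged to −0.58, and the median of the lncRNAs to −2.16. With RLE the 2 medians were 0.18 and −1.34. With TMM factors applied to CPM, 55 of the 142 (38.7%) were lower and 8 (5.63%) higher without overlap between aged (Tm) and aged libraries. Among protein coding genes with 50 or more counts, 12.4% were then lower and 21.6% higher. All tested genes split into 733 higher and 801 lower by TMM, 960 and 659 by RLE, and 370 and 1025 by total count. Differences in share without 1 library were −2.08 to −1.57 (aged (Tm) and aged), −1.06 to −0.704 (aged (Tm) and young) and 0.742 to 1.25 (aged and young) for the 142, and −3.05 to −2.13, −1.51 to −1.06 and 0.915 to 1.84 for all lncRNAs. Those in number detected were −50 to −35, −36 to −21 and 9.17 to 17.5. The 37 called values of named lncRNAs kept their direction in each alternative that could be fitted, but not all stayed past the threshold. Of the 37, 21 did not pass without a filter on low counts, 16 without aged (Tm) replicate 1 and 13 without aged (Tm) replicate 2.

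The labels do not say whether replicate numbers mark pairs. Deviations of same-numbered libraries correlated between −0.509 and 0.376, and libraries with different numbers were not compared, so that pairing was not settled. With the replicate number as a block, 57, 33 and 0 lncRNAs passed in aged (Tm) over aged, aged (Tm) over young and aged over young. A sign flip of the pairs gave a share difference of −1.78 (p = 0.25, exact, the smallest 3 pairs allow) between aged (Tm) and aged libraries.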
